A study of Mus musculus with 16 samples.

Results

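The genes described here are those of the SR and hnRNP splicing factors in gastrocnemius muscle. They were taken as the rows of the count table whose mouse gene symbol starts with *Srsf* or *Hnrnp*, leaving out pseudogenes and genes with a mean count under 50 over the 16 libraries. The rule found 30 of the 24454 genes in the table, 10 *Srsf* and 20 *Hnrnp* genes, and it used no comparison between groups. All 30 were among the 15487 genes that passed edgeR's filter on low counts and were tested. *Srsf12*, with a mean count of 0.875, fell under the limit, and the member with the lowest mean count was *Srsf9*, at 529. RNA came from 3-month-old mice, with 1 library per mouse. HSALR mice of the homozygous line LR20b have an expanded CTG tract within a transgene of the human skeletal actin gene, whose expression is restricted to skeletal muscle, and they serve as a model of myotonic dystrophy type 1 (DM1). They had received vehicle (n = 5) or AICAR (n = 5), an activator of AMP-activated protein kinase, at 500 mg/kg for 7 days. FVB/N control mice without the transgene had received vehicle (n = 3) or AICAR (n = 3).

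SR proteins bind exonic enhancers through 1 or 2 RNA recognition motifs and recruit the splicing machinery through a domain rich in arginine and serine, whose phosphorylation sets their activity. hnRNP proteins coat nascent transcripts, and many of them repress the use of nearby exons or splice sites. In DM1, expanded CUG repeat RNA sequesters the MBNL splicing factors, and developmental splice forms reappear in adult muscle. Many SR and hnRNP genes also control the amount of their own mRNA by splicing in exons or retaining introns that lead to its decay. The counts are totals per gene, so they do not tell such forms from the protein-coding ones.

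Between 64890014 and 81987726 reads per library were counted on genes, and levels are given as CPM, each gene's counts relative to the library total, with totals corrected by TMM factors. Markers of muscle fibres summed to between 109400 and 166000 CPM over all libraries. Of these 7 genes *Acta1* (0.31 and 0.46) and *Myh1* (1.519 and 1.499) were higher in HSALR muscle after vehicle and after AICAR, and *Myh4* was lower after AICAR (-0.67), on the log2 scale. The table has no row for the human transgene, so the genotype labels were not checked on it. Whether reads of this human actin transgene were counted on mouse *Acta1* was not tested. Endothelial markers (*Pecam1*, *Cdh5*, *Kdr* and *Tek*) summed to between 162 and 210 CPM in HSALR vehicle mice and between 246 and 272 CPM in FVB vehicle mice, and all 4 were lower in HSALR muscle after vehicle. Macrophage markers were at 75.3 to 103 CPM and at 57.0 to 80.7 CPM in the same groups, and 2 of 4 were higher. After AICAR 2 of the 4 endothelial markers were lower in HSALR muscle, and with AICAR in HSALR mice *Pecam1* was higher (0.31) and the macrophage gene *Csf1r* lower (-0.32) on the log2 scale. Satellite cell markers (*Pax7* and *Myf5*) summed to at most 3.89 CPM, and *Pax7* was higher in HSALR muscle after vehicle (1.03) and after AICAR (1.38), *Myf5* after AICAR (0.84), and *Pax7* was lower with AICAR in HSALR (-0.70) and FVB (-1.06) mice on the log2 scale. Of the cell division markers *Mki67* and *Top2a*, which summed to at most 6.73 CPM, *Mki67* was higher with AICAR in HSALR (0.95) and FVB (1.25) mice. Fibroblast markers ranged from 1133 to 1553 CPM in HSALR vehicle and from 893 to 1199 CPM in HSALR AICAR mice, and 2 of 4 were lower after AICAR. The epidermal keratins *Krt5*, *Krt14*, *Krt1* and *Krt10* summed to between 3.30 and 220 CPM in HSALR vehicle mice and between 2.26 and 2.85 CPM in HSALR AICAR mice, and all 4 were lower after AICAR. *Krt1*, *Krt5* and *Krt14* were at 0 in 3, 4 and 3 of the 5 HSALR AICAR mice. In the FVB groups they were at 97.3 CPM in vehicle mouse S450 and at 122 CPM in AICAR mouse S448, and at no more than 2.31 CPM in the other 4 mice. The part of these differences in the results on splicing factors was not tested, and the number of the 30 genes called in each comparison is also given without the 4 libraries above 50 CPM of keratins. In whole muscle, fewer cells of a type and less RNA per cell cannot be told apart.

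RefSeq promoter windows of GRCm38.p6, from 250 bases before to 50 bases after a transcription start, were at hand for 28 of the 30 genes. The upstream 250 bases are shown for 4 genes with a single window on which the comparisons turn: *Hnrnpa1*, higher in HSALR muscle with either treatment, *Hnrnpc*, which differed by genotype and by AICAR, and *Srsf7* and *Srsf10*, the SR genes with the largest decrease for AICAR in HSALR mice and for HSALR after AICAR. Capitals mark matches on either strand to the TATA box TATAAA, to CCAAT, to the GC box GGGCGG, to CGGAAG at the core of ETS sites, or to the E-box CACGTG. Sequences run 5′ to 3′ on the strand of the gene. RefSeq also places the outer end of each of these genes upstream of the start used, so that all 250 bases of *Hnrnpa1* and of *Srsf10*, 64 of *Srsf7* and 18 of *Hnrnpc* lie inside the annotated gene.
Hnrnpa1, chr15:103240147-103240396, plus strand: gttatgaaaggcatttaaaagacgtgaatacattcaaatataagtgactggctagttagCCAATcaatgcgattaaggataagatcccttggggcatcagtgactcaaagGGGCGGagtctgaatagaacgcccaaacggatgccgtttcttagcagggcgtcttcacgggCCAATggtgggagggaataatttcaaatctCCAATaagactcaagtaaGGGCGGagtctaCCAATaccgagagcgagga
Hnrnpc, chr14:52104022-52104271, minus strand: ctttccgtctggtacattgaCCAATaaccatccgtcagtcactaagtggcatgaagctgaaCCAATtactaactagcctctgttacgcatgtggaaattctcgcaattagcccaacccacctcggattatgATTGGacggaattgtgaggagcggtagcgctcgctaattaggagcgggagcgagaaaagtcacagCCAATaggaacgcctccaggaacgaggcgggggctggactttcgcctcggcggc
Srsf7, chr17:80207306-80207555, minus strand: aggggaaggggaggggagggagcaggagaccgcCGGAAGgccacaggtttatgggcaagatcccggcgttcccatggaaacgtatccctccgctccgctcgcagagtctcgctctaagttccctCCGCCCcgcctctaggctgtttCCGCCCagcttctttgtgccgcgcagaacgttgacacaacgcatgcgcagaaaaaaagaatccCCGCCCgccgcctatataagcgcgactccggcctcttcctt
Srsf10, chr4:135855821-135856070, plus strand: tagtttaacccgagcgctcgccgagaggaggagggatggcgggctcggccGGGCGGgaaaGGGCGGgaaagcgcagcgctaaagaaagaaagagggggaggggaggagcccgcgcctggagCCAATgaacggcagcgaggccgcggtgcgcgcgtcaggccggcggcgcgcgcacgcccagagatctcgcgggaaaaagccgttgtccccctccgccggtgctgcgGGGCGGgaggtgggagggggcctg

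The stretches printed for *Hnrnpa1* and *Hnrnpc* hold 4 CCAAT matches each, and *Hnrnpa1* also holds 2 GC boxes. Those of *Srsf7* and *Srsf10* hold 3 GC boxes each, with 1 ETS core in *Srsf7* and 1 CCAAT match in *Srsf10*. Over whole windows, CCAAT was found for 17 of the 28 genes (60.7%) and for 42.2% of the 12103 tested genes with a window. GC boxes were found for 23 of 28 (82.1%) against 64.8%, ETS cores for 11 (39.3%) against 31.3%, E-boxes for 5 (17.9%) against 11.2% and TATA boxes for 4 (14.3%) against 9.79%. The windows were rich in CpG dinucleotides, with a median of 32 per window (range 14 to 52) against 19 for all genes tested. A match is a description of the letters and not a binding site.

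The GENCODE annotation lists transcripts subject to nonsense-mediated decay for 19 of the 30 genes (63.3%), against 26.6% of the 14413 protein-coding genes tested. The share was 90% for the *Srsf* genes, 9 of 10, and 50% for the *Hnrnp* genes. *Srsf10* was the *Srsf* gene with none. Transcripts with a retained intron are listed for 22 of the 30 (73.3%) against 55.7%. *Hnrnpk*, a poly(C)-binding protein, has 34 annotated transcripts, the highest number in the family, and *Hnrnpa0* has 1. These are counts of annotated transcripts, which grow with how closely a gene has been studied.

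Per kilobase of gene length, *Hnrnpa2b1* stood above all other members in FVB vehicle mice, at 134 ± 6.52 CPM per kb (mean ± SD, n = 3). It encodes a protein of mRNA transport and splicing, and its level was 139 CPM per kb at most and 127 CPM per kb at least, with the next gene, *Hnrnpab*, at 44.0 ± 0.623 CPM per kb. *Hnrnpu*, *Hnrnpk*, *Hnrnph1* and *Srsf2* followed at between 36.2 and 39.4 CPM per kb, and their ranges overlapped. *Srsf2*, known as SC35 of nuclear speckles, was the highest *Srsf* gene, at 36.2 ± 4.58 CPM per kb. Before division by length it was at 74.8, 73.0 and 58.9 CPM in these mice and at 71.7, 69.6 and 72.9 CPM in FVB AICAR mice. In HSALR mice it was at 63.4, 79.4, 76.2, 71.8 and 74.5 CPM after vehicle and at 56.8, 56.3, 73.6, 66.2 and 70.0 CPM after AICAR. All 4 groups overlapped. The lowest were *Srsf9* (6.26 ± 0.688), *Srsf10* (5.40 ± 0.362) and *Hnrnpr* (3.65 ± 0.326 CPM per kb). Reads that fit several places equally well were reported at only 1 of them, and *Hnrnpa1* has processed copies in the genome, so its level of 9.04 ± 0.292 CPM per kb is uncertain. The sum over the *Srsf* genes was 434 ± 27.2 CPM in FVB vehicle, 430 ± 3.01 CPM in FVB AICAR, 414 ± 24.4 CPM in HSALR vehicle and 380 ± 27.5 CPM in HSALR AICAR mice. The sum over the *Hnrnp* genes lay between 1570 and 1623 CPM on average in the 4 groups.

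**Figure D1:**
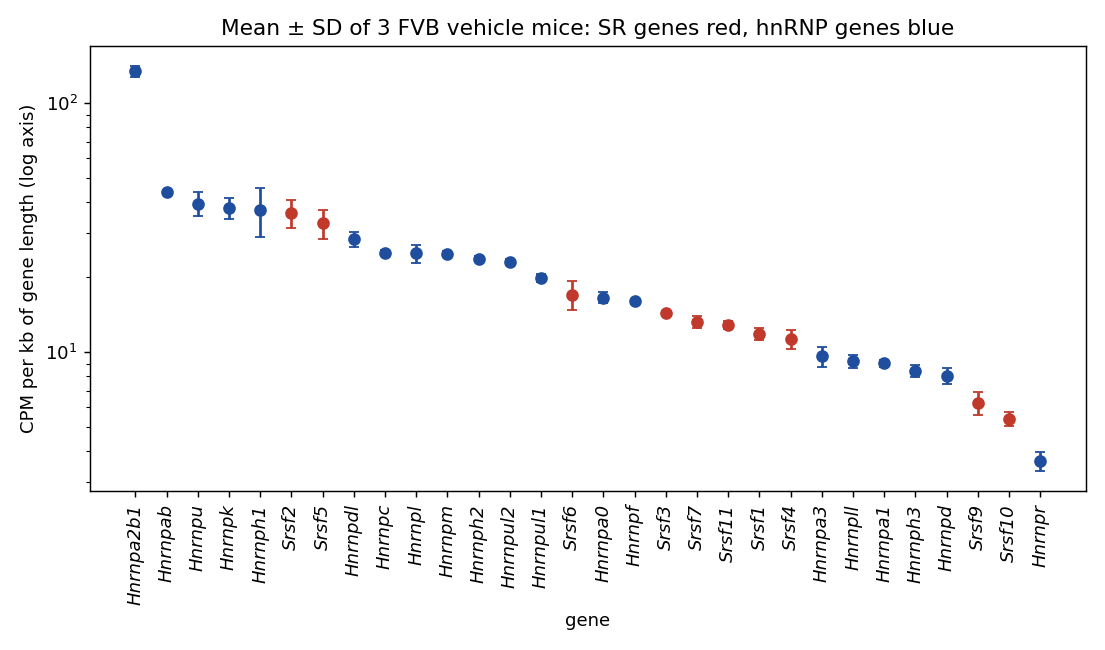
Level of the 30 genes in FVB vehicle mice in CPM per kb of gene length, on a log axis. Points are means and bars SDs of 3 mice. *Hnrnpa2b1* stands at 134 CPM per kb and *Hnrnpr* at 3.65.

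The first comparison asked how the CTG-repeat transgene was accompanied by changes in splicing factor mRNA, in mice that had received vehicle. HSALR muscle had more *Hnrnpa1*, *Srsf4* and *Hnrnpc* mRNA and less *Hnrnpa3*, *Hnrnpd* and *Srsf11* mRNA than FVB muscle. The differences were small, between 1.19- and 1.24-fold for the higher genes, and none of the 30 genes changed by more than 0.33 on the log2 scale. In edgeR's quasi-likelihood F-test, with p adjusted by Benjamini and Hochberg's method over all genes tested, 3 of 30 (10%) were higher, against 15.4% of all genes, and 3 of 30 (10%) were lower, against 11.5%. Both shares were slightly below those of all genes, but each rests on only 3 genes, so no difference is read from them. The median log2 fold change was -0.03 over the 30 genes and 0.01 over all genes.

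*Hnrnpa1* encodes an hnRNP that favours distal 5′ splice sites and opposes SR proteins. It was at 20.5, 19.5 and 19.3 CPM in FVB vehicle mice and at 23.9, 28.2, 23.4, 21.9 and 25.6 CPM in HSALR vehicle mice. Each HSALR mouse was above each FVB mouse, with a log2 fold change of 0.31 ± 0.09 (SE; adjusted p = 0.0211). *Srsf4*, an SR protein with 2 RNA recognition motifs, was at 26.3, 27.1 and 23.0 CPM in FVB mice and at 30.8, 29.0, 30.8, 34.6 and 32.3 CPM in HSALR mice. The groups did not overlap (log2 fold change 0.30 ± 0.07, adjusted p = 0.00381).

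*Hnrnpc*, whose protein binds uridine tracts and keeps cryptic exons out of mRNA, was at 69.7, 72.1 and 72.5 CPM in FVB mice. In HSALR mice it was at 89.3, 89.1, 88.0, 80.8 and 77.5 CPM, again with no overlap (log2 fold change 0.25 ± 0.06, adjusted p = 0.00601). Without the libraries above 50 CPM of keratins, 3 of the 30 genes were called in place of 6. *Hnrnpa1* was then at 0.29 (adjusted p = 0.167), *Srsf4* at 0.22 (adjusted p = 0.101) and *Srsf11* at -0.20 (adjusted p = 0.175) on the log2 scale. The call of *Hnrnpa1* was also lost without FVB mouse S446 or S450 or HSALR mouse S452.

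Among the lower genes, *Hnrnpa3*, a close relative of *Hnrnpa1*, was at 54.1, 51.8 and 45.0 CPM in FVB vehicle mice and at 38.6, 42.8, 43.3, 37.9 and 40.1 CPM in HSALR vehicle mice. All HSALR values were under the lowest FVB value, and the log2 fold change was -0.31 ± 0.07 (adjusted p = 0.00285). *Hnrnpd*, or AUF1, binds AU-rich elements and regulates mRNA decay. It was at 59.2, 51.9 and 53.3 CPM in FVB and at 42.9, 48.2, 44.7, 46.2 and 47.6 CPM in HSALR mice, without overlap (log2 fold change -0.26 ± 0.06, adjusted p = 0.00856). *Srsf11* was at 40.7, 39.8 and 42.5 CPM in FVB and at 37.7, 37.5, 35.4, 30.5 and 33.1 CPM in HSALR mice. The difference was -0.24 ± 0.07 on the log2 scale (adjusted p = 0.0148). The call of *Hnrnpd* was lost without FVB mouse S445 and that of *Srsf11* without FVB mouse S450. Scaling to *Tbp* moved the median of all genes by 0.27, and relative to *Tbp* the 3 lower genes were at -0.04 (*Hnrnpa3*), 0.02 (*Hnrnpd*) and 0.04 (*Srsf11*), while 9 of the 30 genes were called higher and 0 lower, and 14 of the 16 estimates below 0 turned positive.

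By branch of the family, the counts stand beside 15.4% higher and 11.5% lower of all genes. Each branch holds few genes, so that 1 call makes a large share. In the A/B and D group, 1 gene was higher (14.3%) and 2 lower (28.6%) of 7. Of the SR proteins with 2 RNA recognition motifs 1 of 5 (20%) was higher, and of those with 1 motif 1 of 5 (20%) was lower. No gene of the F/H group or the U group passed the test. In the group of hnRNP C, K, L, M and R only *Hnrnpc* did (1 of 6, 16.7%, higher). *Srsf5*, whose protein is an SR factor with 2 motifs, had the lowest estimate of all, -0.33 ± 0.15, but did not pass the test (adjusted p = 0.111), and its interval ran from -0.64 to -0.02.

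**Figure D2:**
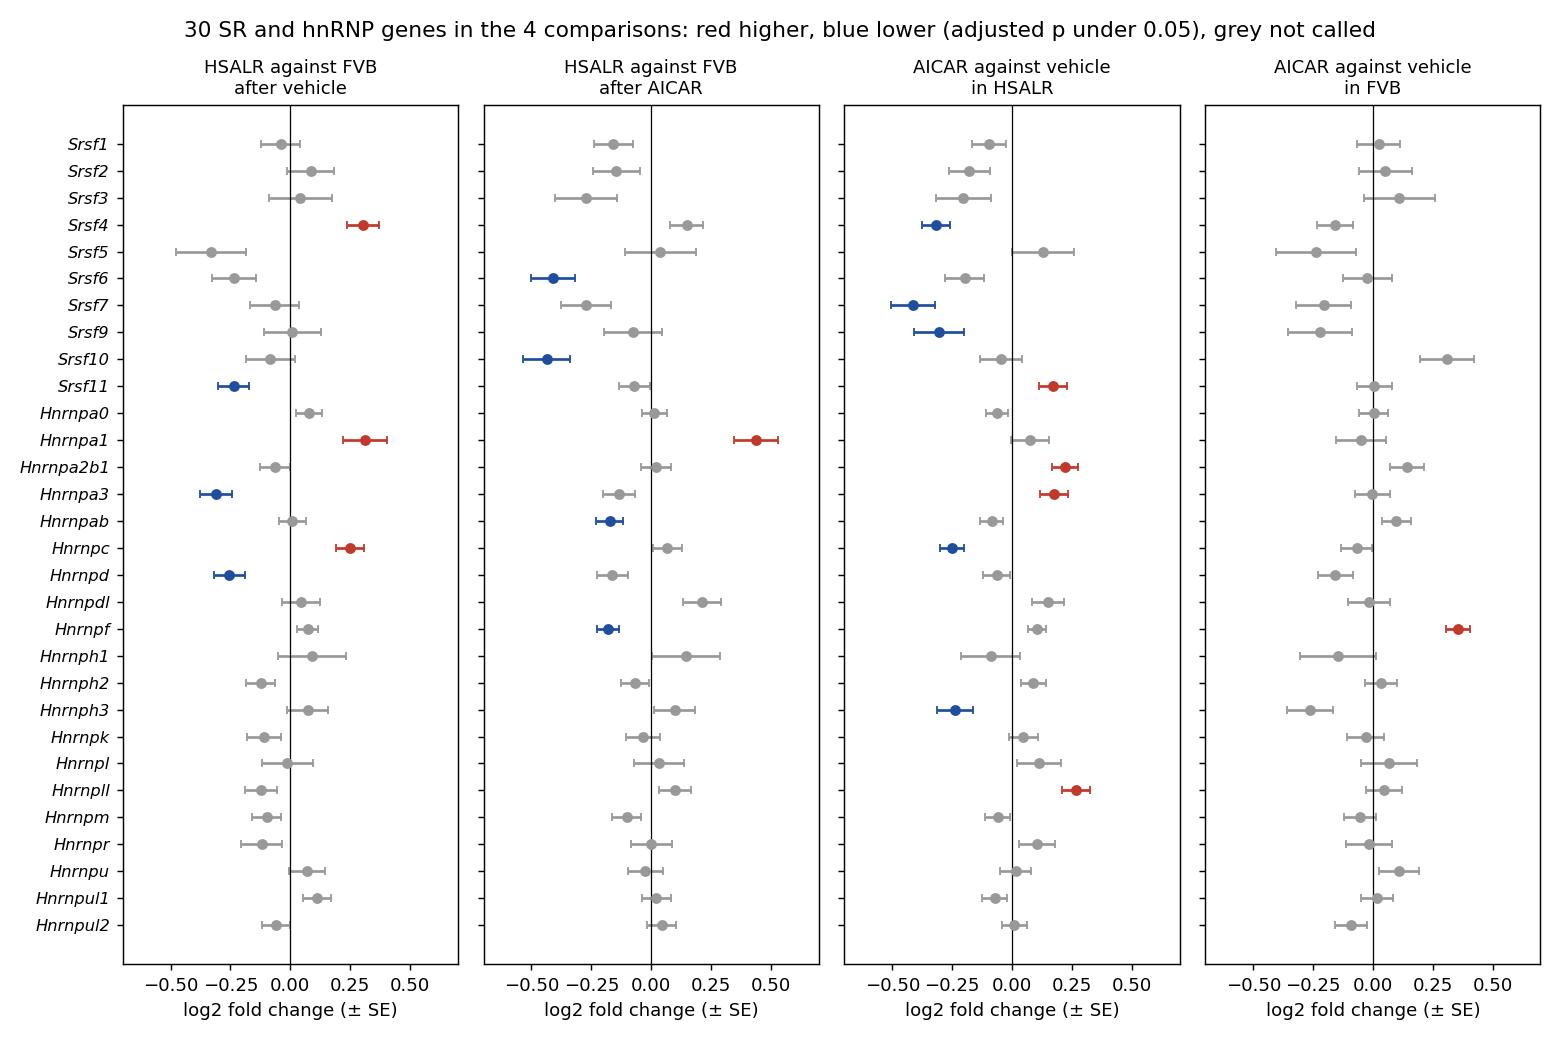
Log2 fold change (x axis) of each of the 30 genes in the 4 comparisons, with bars for the standard error. Red marks higher and blue lower genes by edgeR's quasi-likelihood test, and grey those not called: 6 genes were called for HSALR after vehicle, 5 for HSALR after AICAR, 9 for AICAR in HSALR mice and 1 for AICAR in FVB mice.

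AICAR was compared with vehicle within HSALR mice. Of the SR genes 3 were lower and 1 was higher. *Srsf7*, *Srsf4* and *Srsf9* were lower after AICAR, together with *Hnrnpc* and *Hnrnph3*, while *Hnrnpll*, *Hnrnpa2b1*, *Hnrnpa3* and *Srsf11* were higher. The changes were between 1.13- and 1.20-fold for the higher genes, and *Srsf7* fell to 0.751 of its vehicle level. Of the 30 genes, 4 (13.3%) were higher against 13.7% of all genes, and 5 (16.7%) were lower against 13.0%. Both shares were near those of all genes. The split depended on scaling, with 2 genes higher and 10 lower by library size alone, 2 and 6 with upper-quartile factors and 0 and 5 relative to *Tbp*. Over the 10 *Srsf* genes the median log2 fold change was -0.19, with 8 estimates below 0, and over the 20 *Hnrnp* genes it was 0.03. Over all genes tested it was -0.02, with 8244 of 15487 below 0. The *Srsf* estimates come from the same mice and are not independent, and several *Srsf* genes differed among the vehicle mice, as described below.

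*Srsf7* encodes an SR protein with a zinc knuckle that takes part in mRNA export. It was at 36.5, 40.3, 35.7, 29.97 and 31.0 CPM in HSALR vehicle mice and at 25.7, 21.3, 30.2, 27.5 and 25.5 CPM in HSALR AICAR mice. The groups overlapped only in that AICAR mouse S460 was above vehicle mouse S458, and the log2 fold change was -0.41 ± 0.09 (adjusted p = 0.00369). *Srsf4* was at 26.0, 23.2, 25.3, 25.0 and 27.0 CPM after AICAR, all under the vehicle values given above (log2 fold change -0.32 ± 0.06, adjusted p = 0.00115). These AICAR values were in the range of FVB vehicle mice, and HSALR AICAR did not pass the test against FVB AICAR (0.15 ± 0.07, adjusted p = 0.129).

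*Srsf9*, whose protein is closely related to that of *Srsf1*, was at 8.02, 7.50, 8.23, 9.11 and 6.56 CPM after vehicle and at 6.31, 6.71, 7.26, 5.61 and 6.01 CPM after AICAR. The ranges overlapped, with a log2 fold change of -0.31 ± 0.10 and an adjusted p of 0.042, and the call was lost when any 1 of 8 mice was left out, among them FVB vehicle S445. *Hnrnpc* was at 76.0, 73.4, 72.7, 69.3 and 65.5 CPM after AICAR, below every HSALR vehicle mouse (log2 fold change -0.25 ± 0.05, adjusted p = 0.00238). *Hnrnph3*, a G-run binding hnRNP of the H group, was at -0.24 ± 0.07 (adjusted p = 0.026), with ranges of 16.0 to 22.2 CPM after vehicle and 14.7 to 17.4 CPM after AICAR, and its call was lost when any 1 of 4 mice was left out.

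*Hnrnpll* encodes an hnRNP L paralogue known for the splicing of CD45 in lymphocytes. It was at 24.9, 27.5, 26.6, 24.0 and 25.6 CPM after vehicle and at 34.1, 32.9, 30.2, 29.0 and 28.4 CPM after AICAR, without overlap (log2 fold change 0.27 ± 0.06, adjusted p = 0.00386). *Hnrnpa2b1* was at 293, 320, 300, 303 and 325 CPM after vehicle and at 374, 389, 345, 364 and 329 CPM after AICAR. The log2 fold change was 0.22 ± 0.05 (adjusted p = 0.00746), and every AICAR mouse was above every vehicle mouse. In FVB mice it was at 335, 327 and 305 CPM after vehicle and at 338, 351 and 377 CPM after AICAR, with an estimate of 0.14 ± 0.07 (adjusted p = 0.201). Relative to *Tbp* neither passed the test (adjusted p = 0.265 for *Hnrnpll* and 0.485 for *Hnrnpa2b1*). *Hnrnpa3*, whose vehicle values stand above, was at 45.5, 46.4, 49.8, 44.7 and 42.6 CPM after AICAR, and 1 of these mice was below the highest vehicle mouse. *Hnrnpa3* rose by 0.18 ± 0.06 (adjusted p = 0.0354) and *Srsf11* by 0.17 ± 0.06 (adjusted p = 0.0375), with overlapping ranges. The call of *Hnrnpa3* was lost on leaving out any 1 of 6 mice and that of *Srsf11* any 1 of 7.

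*Hnrnpc*, *Srsf4*, *Hnrnpa3* and *Srsf11* were thus called in the genotype comparison after vehicle and, in the opposite direction, in the AICAR comparison in HSALR mice. Both comparisons use the same 5 HSALR vehicle mice, so that a deviation of those mice moves both. In the other mice, HSALR AICAR against FVB AICAR, the estimates were 0.07 ± 0.06 for *Hnrnpc*, 0.15 ± 0.07 for *Srsf4*, -0.13 ± 0.07 for *Hnrnpa3* and -0.07 ± 0.07 for *Srsf11*, and none passed the test. The count of 9 called genes became 5 without vehicle mouse S458 and 5 without AICAR mouse S454. It was 7 without the libraries above 50 CPM of keratins.

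**Figure D3:**
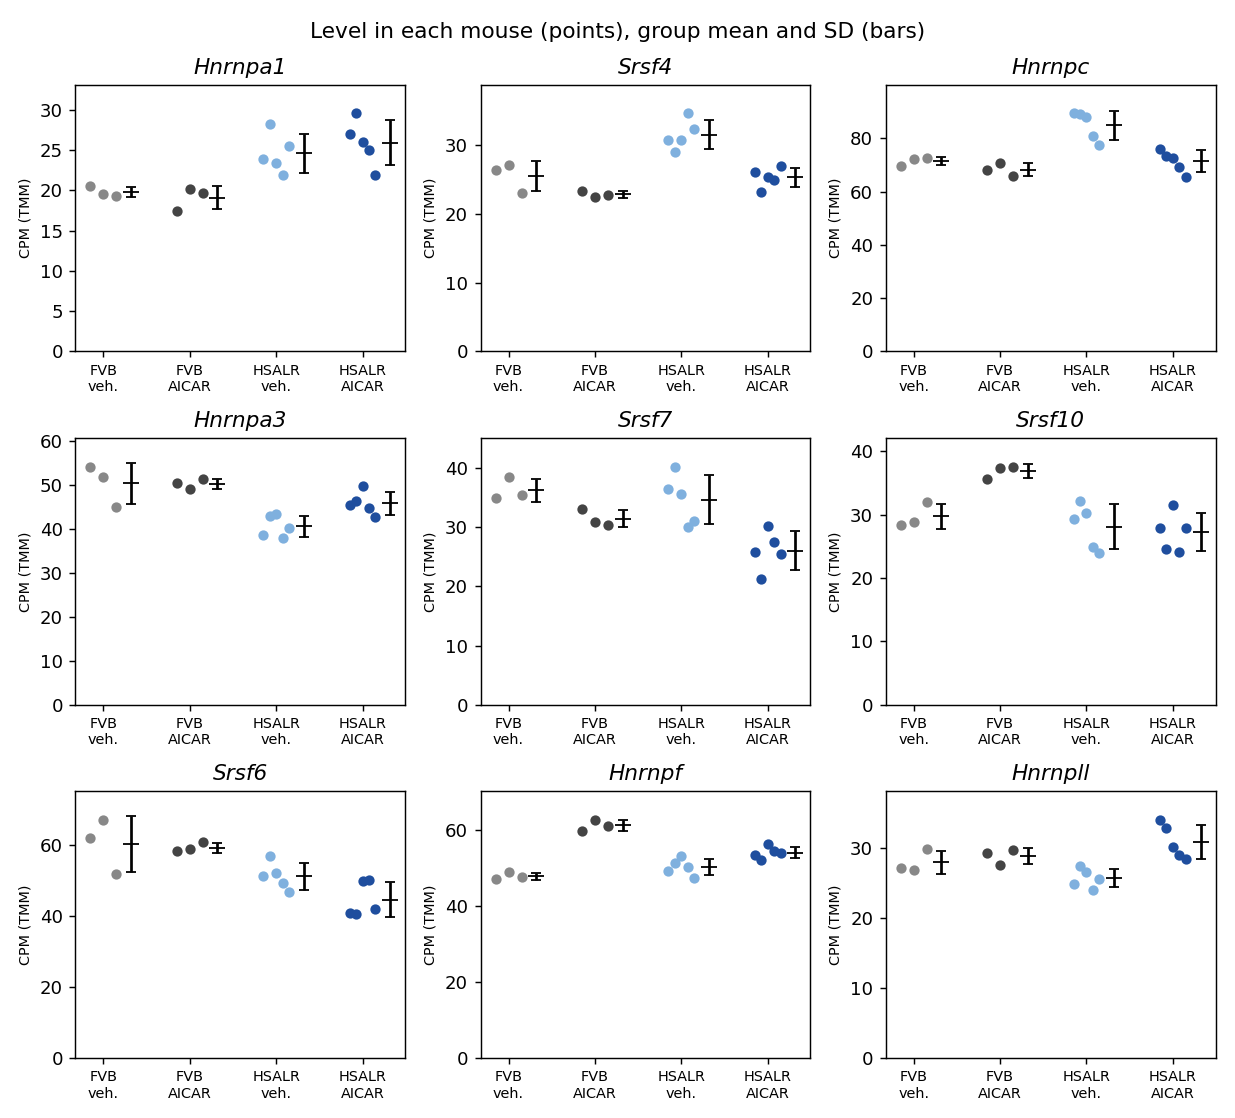
CPM after TMM scaling (y axis, from 0) of 9 genes in each mouse of the 4 groups. Points are mice, and the bar to their right is the mean ± SD of 3 or 5 mice. Every HSALR mouse is above every FVB mouse for *Hnrnpa1*, and the FVB AICAR mice are at 59.8 to 62.6 CPM for *Hnrnpf*.

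In AICAR-treated mice, HSALR was again compared with FVB. *Hnrnpa1* was the gene higher in HSALR muscle, and *Srsf10*, *Srsf6*, *Hnrnpf* and *Hnrnpab* were lower. Of 30 genes, 1 (3.33%) was higher against 12.2% of all genes, and 4 (13.3%) were lower against 9.64%. All 5 estimates for SR proteins with 1 motif were below 0, with a median of -0.27, but *Srsf10* alone of them passed the test. Over all genes 7657 of 15487 estimates were below 0, with a median of 0.004. After vehicle 3 of the same 5 genes were below 0, with a median of -0.07. The 5 estimates come from the same mice and are not independent.

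*Hnrnpa1* was at 17.5, 20.2 and 19.7 CPM in FVB AICAR mice and at 27.0, 29.6, 26.0, 25.0 and 21.95 CPM in HSALR AICAR mice. No values overlapped (log2 fold change 0.44 ± 0.09, adjusted p = 0.004). It was the 1 gene of the 30 called in both genotype comparisons. These have no mouse in common but share 1 estimate of the spread, and the matching count over all genes was not made. *Srsf10*, which acts as a repressor when dephosphorylated, was at 35.6, 37.4 and 37.6 CPM in FVB AICAR mice and at 28.0, 24.6, 31.6, 24.1 and 27.9 CPM in HSALR AICAR mice. Its log2 fold change was -0.44 ± 0.10 (adjusted p = 0.00604), against -0.08 ± 0.10 after vehicle. In FVB vehicle mice *Srsf10* was at 28.3, 28.9 and 32.04 CPM, lower than in every FVB AICAR mouse, though AICAR in FVB did not pass the test (0.31 ± 0.11, adjusted p = 0.0828).

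*Srsf6*, an SR protein with 2 motifs, was at 58.3, 58.9 and 61.0 CPM in FVB AICAR mice and at 40.9, 40.6, 49.9, 50.1 and 42.0 CPM in HSALR AICAR mice. The groups were apart (log2 fold change -0.41 ± 0.09, adjusted p = 0.00561). After vehicle the estimate was -0.23 ± 0.09 (adjusted p = 0.0722), with FVB mice from 51.8 to 67.2 CPM and HSALR mice from 46.8 to 57.0 CPM. *Hnrnpab* differed by -0.17 ± 0.06 (adjusted p = 0.0355), and this call was lost on leaving out any 1 of 6 mice. Relative to *Tbp* only *Srsf10* passed the test, with adjusted p at 0.0647 for *Hnrnpa1*, 0.0707 for *Srsf6*, 0.19 for *Hnrnpf* and 0.277 for *Hnrnpab*, and each kept its direction. The count of 5 became 8 without AICAR mouse S460 of the HSALR group and 3 without the libraries above 50 CPM of keratins.

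In FVB mice, *Hnrnpf* was the 1 gene of the 30 called for AICAR. The protein binds G-runs and regulates exon inclusion. It was at 47.1, 48.8 and 47.5 CPM after vehicle and at 59.8, 62.6 and 61.1 CPM after AICAR, a 1.28-fold difference (log2 fold change 0.36 ± 0.05, adjusted p = 0.000448). In HSALR mice it was at 49.3, 51.3, 53.2, 50.1 and 47.4 CPM after vehicle and at 53.4, 52.2, 56.1, 54.5 and 53.8 CPM after AICAR. There the ranges overlapped and the estimate was 0.10 ± 0.04 (adjusted p = 0.0566), though DESeq2 called it there too (0.11, adjusted p = 0.0142). Reads of genes on the opposite strand that overlap *Hnrnpf* may be part of its count. Of the 30 genes 1 (3.33%) was higher, against 8.40% of all genes, and none lower, against 4.77%. At an unadjusted p under 0.05 there were 4 genes in either direction (13.3%, against 28.5% of all genes), and DESeq2 and limma voom each called 0 lower, while upper-quartile factors gave 2 lower genes and library size alone 1. Without the libraries above 50 CPM of keratins *Hnrnpf* remained the 1 called gene. Intervals of the genes not called ran from -0.59 (*Srsf5*) to 0.55 (*Srsf10*), so changes in other genes remain possible.

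Whether the AICAR effect differed between the genotypes was tested as the interaction of the model. By edgeR, 0 of 30 genes were called, against 0.207% of all genes with a higher and 0.484% with a lower effect in HSALR mice, and 5 of the 30 (16.7%) had an unadjusted p under 0.05, near the 15.0% of all genes. *Hnrnpf* came closest, with a difference of -0.25 ± 0.06 (adjusted p = 0.0811). DESeq2 called *Hnrnpf* (-0.25, adjusted p = 0.0022), and limma voom called 0 genes, as did edgeR without the libraries above 50 CPM of keratins. The other 4 were *Srsf10* (-0.35 ± 0.14), *Hnrnpab* (-0.18 ± 0.08), *Hnrnpll* (0.22 ± 0.10) and *Hnrnpc* (-0.18 ± 0.08). Intervals of the 30 differences ran from -0.71 for *Srsf3* to 0.81 for *Srsf5*, so that sizeable differences remain possible for these genes.

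AICAR estimates in HSALR and in FVB mice share no animal. Over the 30 genes they had a Pearson correlation of 0.41 and a Spearman correlation of 0.40, against 0.25 and 0.47 over all genes tested, and 16 of 30 had the same sign (53.3%), against 68.0% of all genes tested. The genotype estimates after vehicle and after AICAR, also from separate mice, had a Pearson correlation of 0.49 and a Spearman correlation of 0.40, against 0.25 and 0.49 over all genes, with 18 of 30 of the same sign (60%) against 71.0%. These are descriptions over genes, which are not independent of each other.

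Of the 30 genes, 15 were called in none of the 4 comparisons: *Srsf1*, *Srsf2*, *Srsf3*, *Srsf5*, *Hnrnpa0*, *Hnrnpdl*, *Hnrnph1*, *Hnrnph2*, *Hnrnpk*, *Hnrnpl*, *Hnrnpm*, *Hnrnpr*, *Hnrnpu*, *Hnrnpul1* and *Hnrnpul2*. The matching count over all genes tested was not made, so it is not known whether 15 of 30 is many or few. *Srsf1*, or SF2/ASF, and *Srsf3*, which promotes mRNA export, are SR proteins of wide function. *Hnrnpu* encodes a scaffold attachment factor and *Hnrnpl* a protein that binds CA repeats. *Hnrnph1*, a relative of *Hnrnph3*, was at 84.7, 101 and 63.7 CPM in FVB vehicle mice and at 91.4, 110, 86.2, 87.5 and 66.1 CPM in HSALR vehicle mice. After AICAR it was at 76.3, 70.9 and 78.1 CPM in FVB mice and at 76.3 to 91.2 CPM in HSALR mice. Intervals of the genes not called ran from -0.64 (*Srsf5*) to 0.39 (*Hnrnph1*) for HSALR after vehicle and from -0.45 (*Srsf3*) to 0.40 (*Srsf5*) for AICAR in HSALR mice.

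Among HSALR vehicle mice, several SR genes differed between lower and higher mouse numbers. This was seen after the values had been looked at, and the labels do not say what the numbers stand for. *Srsf3* was at 43.3, 53.7 and 53.1 CPM in S451, S452 and S453 and at 35.2 and 39.0 CPM in S458 and S459. *Srsf1*, *Srsf7* and *Srsf10* were also higher in the first 3 mice, with 67.4 to 73.0 CPM against 54.4 and 57.8 CPM for *Srsf1*. Of the genes called in opposite directions above, *Hnrnpc* (88.0 to 89.3 against 77.5 and 80.8 CPM) and *Srsf11* (35.4 to 37.7 against 30.5 and 33.1 CPM) were higher in the first 3 mice, and *Srsf4* (29.0 to 30.8 against 32.3 and 34.6 CPM) was lower. *Srsf5* went the other way, at 35.8, 41.2 and 36.5 CPM against 50.7 and 52.6 CPM. In all, 8 of the 30 genes were higher in the first 3 mice without overlap, against 16.3% of all genes, and 4 were lower, against 15.1%. Among the 10 *Srsf* genes 6 were higher and 2 lower.

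**Figure D4:**
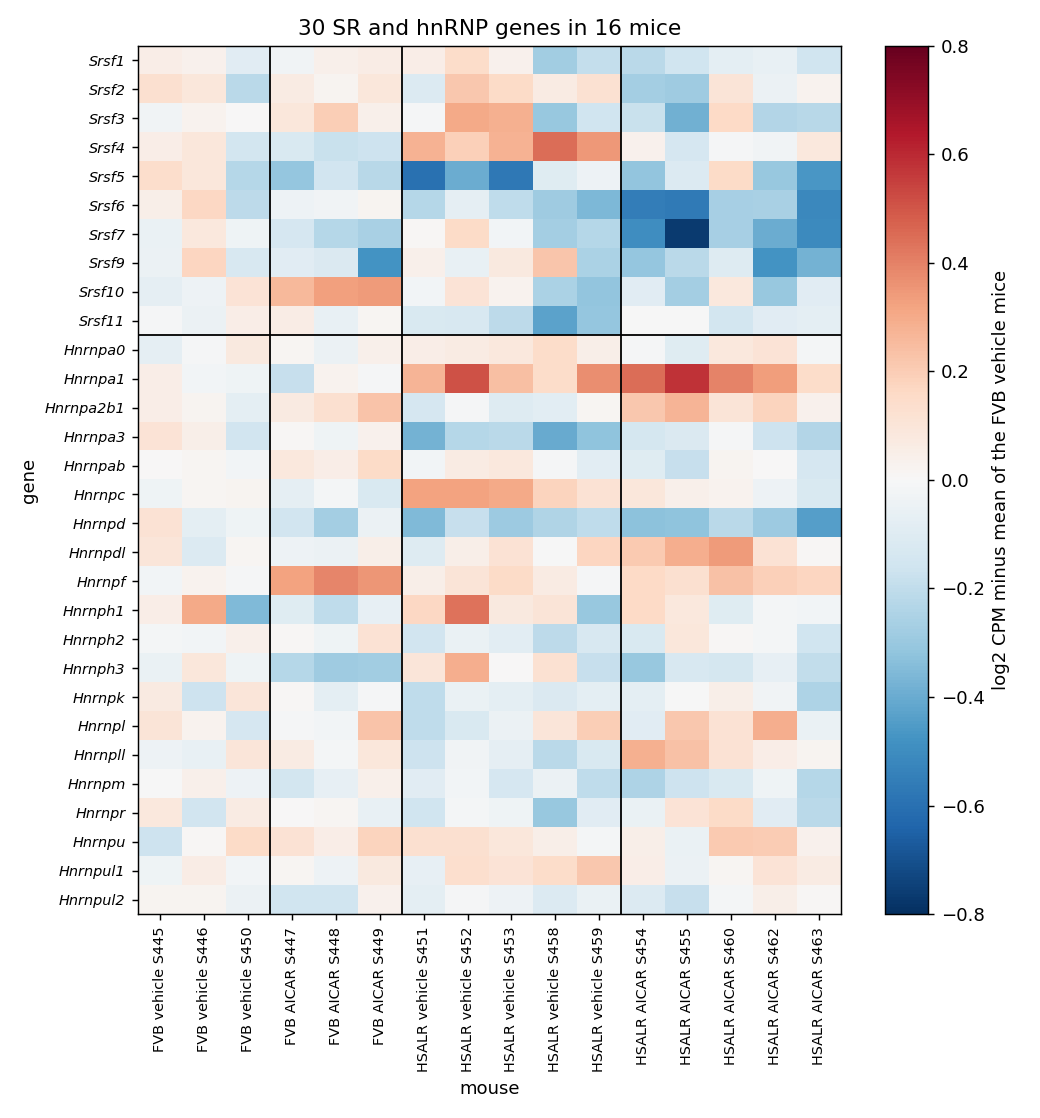
Log2 CPM of the 30 genes (rows) in the 16 mice (columns), minus the mean of the 3 FVB vehicle mice. Red is higher and blue lower, and black lines part the groups and the *Srsf* from the *Hnrnp* genes. Values run from -0.77 (*Srsf7*, HSALR AICAR S455) to 0.58 (*Hnrnpa1*, HSALR AICAR S455).

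Genes that work with these factors were described from lists of the splicing machinery. Of 13 hnRNP genes under other symbols, 2 (15.4%) were higher and 2 (15.4%) lower in HSALR muscle after vehicle, against 15.4% and 11.5% of all genes. *Pcbp3*, a poly(C)-binding protein, had the largest difference, at 1.62, 1.80 and 1.74 CPM in FVB and 2.39, 3.00, 3.28, 2.92 and 3.25 CPM in HSALR mice (log2 fold change 0.79 ± 0.13, adjusted p = 0.000511). *Pcbp1* was higher by 0.23 ± 0.05 (adjusted p = 0.00409). *Ptbp3*, a polypyrimidine tract-binding protein, was lower (-0.42 ± 0.12, adjusted p = 0.0144), as was *Pcbp4* (-0.29 ± 0.10, adjusted p = 0.0404). For AICAR in HSALR mice 2 of the 13 (15.4%, against 13.7% of all genes) were higher, *Ptbp3* (0.29 ± 0.10) and *Pcbp2* (0.16 ± 0.04), with the other 11 not called.

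Kinases that phosphorylate SR proteins, with their partners, formed a list of 17 genes, of which 3 (17.6%) were higher and 4 (23.5%) lower in HSALR muscle after vehicle, against 15.4% and 11.5% of all genes. *Srpk3*, an SR protein kinase of striated muscle, was at 37.9, 38.4 and 43.5 CPM in FVB and at 56.6, 59.0, 54.3, 54.1 and 59.3 CPM in HSALR vehicle mice, without overlap (0.51 ± 0.11, adjusted p = 0.00259). *Srpk2* was higher by 0.32 ± 0.11 (adjusted p = 0.0383). *Clk3*, a kinase of the same substrates, was lower (-0.34 ± 0.05, adjusted p = 6.73e-05), and so was *Son*, a speckle protein (-0.34 ± 0.10, adjusted p = 0.0177). For AICAR in HSALR mice 2 of the 17 were lower, *Tra2b* and *Clk3* (-0.14 ± 0.04, adjusted p = 0.0177), or 11.8% against 13.0% of all genes. In FVB mice 1 of the 17 (5.88%, against 8.40%) was higher and 4 (23.5%, against 4.77%) were lower, *Clk1* (-0.45 ± 0.12), *Clk4* (-0.38 ± 0.09), *Clk3* (-0.26 ± 0.05) and *Srpk3* (-0.40 ± 0.12). *Tra2b*, an SR-like splicing activator, was at 20.8, 27.1, 24.1, 20.3 and 21.4 CPM after vehicle and at 16.1, 16.7, 20.2, 15.5 and 17.2 CPM after AICAR (-0.41 ± 0.08, adjusted p = 0.0025).

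Core spliceosome genes made the largest list, with 11 of 33 (33.3%) higher and 4 (12.1%) lower in HSALR muscle after vehicle, against 15.4% and 11.5% of all genes, and a median log2 fold change of 0.14. After AICAR 7 (21.2%, against 12.2%) were higher and 1 (3.03%, against 9.64%) was lower in HSALR compared with FVB mice. After vehicle, *Sf3b2* of the U2 particle was higher by 0.35 ± 0.05 (adjusted p = 0.000216) and *Snrpf*, an Sm protein, by 0.35 ± 0.09 (adjusted p = 0.00812), while *Prpf4* (-0.44 ± 0.06, adjusted p = 0.00016) and *Prpf8* (-0.41 ± 0.09, adjusted p = 0.00305), which belong to the tri-snRNP, were lower. For AICAR in HSALR mice 4 of the 33 (12.1%, against 13.7%) were higher, with *Sf3b1* at 0.32 ± 0.07 (adjusted p = 0.00362) and *Prpf4* at 0.24 ± 0.06 (adjusted p = 0.00579), and 2 (6.06%, against 13.0%) were lower, *Snrpa1* (-0.21 ± 0.07, adjusted p = 0.0386) and *Snrnp40* (-0.18 ± 0.06, adjusted p = 0.0479). Of 8 genes of nonsense-mediated decay, 2 (25%, against 11.5%) were lower in HSALR muscle after vehicle, *Upf2* (-0.28 ± 0.07, adjusted p = 0.00846) and *Smg6* (-0.20 ± 0.06, adjusted p = 0.0236). After AICAR 4 (50%, against 9.64%) were lower in HSALR muscle, *Smg5* (-0.36 ± 0.08), *Upf3a* (-0.27 ± 0.09), *Upf2* (-0.23 ± 0.07) and *Smg6* (-0.17 ± 0.06). Relative to *Tbp*, *Pcbp4*, *Upf2* and *Smg6* were just above 0 in HSALR against FVB after vehicle.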

How the data were processed

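Reads of stranded TruSeq mRNA libraries were mapped by the authors to mm10 with STAR 2.5.2a, and the deposited values are raw counts of reads per RefSeq gene. Whether counting used the strand is not given in the sources used here, so *Hnrnpf*, *Srsf4* and other genes that overlap one on the opposite strand may hold its reads. Entrez identifiers were given RefSeq symbols of GRCm38.p6 (24374 matched, 80 not). edgeR 4.0.16 in R 4.3.3 was used with TMM scaling, filterByExpr, 1 mean per group over all 16 libraries, glmQLFit and glmQLFTest. Genes with an adjusted p under 0.05 over the 15487 tested were called. Intervals cover 95%. Values of every mouse are given for the 3 higher and 3 lower called members with the largest change in each two-group comparison and for the Srsf and Hnrnp gene highest per kilobase; from each list, 2 genes per direction are named for HSALR after vehicle and AICAR in HSALR mice. Any other gene shown by mouse was picked with its values known. Members and lists were chosen with earlier results of these data known. Alternatives were DESeq2 1.42.0, limma 3.58.1 voom, RLE, upper-quartile, library-size and *Tbp* scaling, 2 other filters, robust estimation, fits of the groups compared only, and leaving out each mouse. Replicates differed by more than counting error (chi-square per degree of freedom 24.0 to 134).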

Additional observations from a re-analysis of the deposited data

How the results depend on the processing

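Of the 21 calls in the 4 two-group comparisons, 6 were kept under every alternative run: *Hnrnpc* for HSALR after vehicle, *Srsf10* for HSALR after AICAR, *Hnrnpc*, *Srsf4* and *Srsf7* for AICAR in HSALR mice, and *Hnrnpf* for AICAR in FVB mice. Scaling to *Tbp*, which moved the median of all genes by 0.27 for HSALR after vehicle, -0.04 for HSALR after AICAR, -0.11 for AICAR in HSALR mice, 0.20 for AICAR in FVB mice and -0.31 for the difference of the AICAR effects, gave in that order 9, 1, 5, 2 and 1 called genes in place of 6, 5, 9, 1 and 0. For HSALR after vehicle it turned the sign of 14 of the 30 genes, and among the called and named genes that of *Hnrnpd* (0.0228), *Srsf11* (0.0397), *Pcbp4* (0.001), *Upf2* (0.0008) and *Smg6* (0.0783). Without the 4 libraries above 50 CPM of keratins, an alternative added after the data were seen, 3 genes were called for HSALR after vehicle and 3 for HSALR after AICAR. For AICAR in FVB mice, upper-quartile scaling gave 3 calls, library size alone 2 and the fit of these groups only 2. For the difference of the AICAR effects DESeq2 called 1 gene. Leaving out each mouse gave 5 to 6 calls for HSALR after vehicle, 4 to 8 for HSALR after AICAR (8 without HSALR AICAR S460), 5 to 9 for AICAR in HSALR mice, 1 to 2 for AICAR in FVB mice (2 without HSALR vehicle S452 or S459) and 0 to 1 for the difference (1 without HSALR AICAR S460). The cause of these shifts was not tested. No paired analysis was possible because no mouse identifier is shared between groups.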
